A study of Mus musculus with 60 samples.

Results

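The growth hormone and IGF axis was taken as 10 named genes, Ghr, Stat5a, Stat5b, Socs2, Igf1, Igfals, Igfbp1, Igfbp2, Igfbp3 and Igfbp4, and the rule that lists them uses no measured value. All 10 were listed in both RNA-seq tables examined here, none was lost to the low-value filter, and each is thus 1 of 12328 genes tested for the cells and of 11114 for the livers. The series holds 60 samples in 20 groups of 3, all labelled WT and strain C57BL/6. For the single-cell clones, the study describes hepatocytes from Albumin-Cre mice with a tdTomato reporter allele, which the labels of clone-1 do not give. It asks how hepatocytes grown with interleukin 6 (IL6), and the progenitor-like and matured cells derived from them, compare with fresh hepatocytes, and how the liver changes after surgery.

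The cell table holds 33 samples in 11 groups. Hepatocytes were freshly isolated. IL6-iHPCs-D3 (P0) and IL6-iHPCs-D14 (P0), called D3 and D14 here, were hepatocytes kept for 3 and 14 days at passage 0 in IL6-HCM, a medium with insulin-transferrin-selenium, EGF, HGF, dexamethasone and IL6. The passaged IL6-iHPCs came as 4 lines, mouse-1 (P10), mouse-1 (P35), mouse-2 (P10) and clone-1 (P20), the number after P being the passage, and the IL6-iMHs were the same 4 lines after 7 days in HMM, a maturation medium with insulin-transferrin-selenium, dexamethasone and oncostatin M. Growth hormone is not listed in either medium, while insulin and dexamethasone are listed in both. The dexamethasone concentration given for HMM is higher than that given for IL6-HCM. The mouse-1 line enters at both P10 and P35, clone-1 is 1 clone grown from a single cell, and the 3 samples of each cell group were technical repeats in the study's own description, so that the tests measure the spread between repeats of 1 culture and not between mice. The liver table holds 18 samples in 6 groups, namely Normal liver and whole liver at 6 hours (PHX-6h), 24 hours (PHX-24h), 3 days (PHX-D3), 7 days (PHX-D7) and 14 days (PHX-D14) after 2/3 partial hepatectomy (PHX), the removal of most of the liver mass. Whether the 3 samples of a liver group came from separate animals is not given in the sources used here. The remaining table holds 9 samples at day 7 and lists only 1 of the 10 genes.

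Growth hormone from the pituitary acts on the liver through its receptor, the product of Ghr, which works with the kinase Jak2 and the transcription factors Stat5a and Stat5b. Hepatocytes answer with Igf1, the main source of circulating IGF1, and with Igfals, the acid-labile subunit that holds IGF1 and IGFBP3 in a long-lived complex in blood, and Socs2 feeds back on the receptor. IGF binding proteins (IGFBPs) carry IGFs and limit their access to receptors. Igfbp1 is a binding protein under acute control in liver, lowered by insulin through forkhead factors and raised by glucocorticoids, fasting and injury, and was named early as a gene induced in regenerating liver. In rodent liver the circulating Igfbp3 comes largely from nonparenchymal cells rather than hepatocytes.

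Of the 10 genes, 5 lie on mouse chromosome 11 (build GRCm38, coordinates from GENCODE vM21). Igfbp1 (chr11:7197782-7202546, plus strand) and Igfbp3 (chr11:7206086-7213923, minus strand) are neighbours that point tail to tail with 3539 bases between them. Stat5b (chr11:100780731-100850724, minus strand) and Stat5a (chr11:100859351-100885169, plus strand) lie head to head with 8626 bases between them. Igfbp4 is at chr11:99041244-99054392 on the plus strand. The others are Ghr (chr15:3317760-3583492, minus), Igf1 (chr10:87858265-87937042, plus), Socs2 (chr10:95385362-95417180, minus), Igfals (chr17:24865997-24882010, plus) and Igfbp2 (chr1:72824503-72852474, plus), and the values below count reads over each gene's exons.

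Promoter windows of 3 genes are shown, Igfbp1 because it rose in culture and in the liver, and Igfbp2 and Igfals because they fell in culture. The sequences are RefSeq's for GRCm38.p6, the 250 bases before an annotated start on the plus strand, and 9 of the 10 genes matched an entry, Socs2 being named only. Capitals mark a match on either strand to CAAAACA, the core of the insulin response element that forkhead factors bind, or to TTCNNNGAA, the palindrome that STAT5 binds, and these motifs do not overlap each other.
Igfbp1 (chr11:7197537-7197786, build GRCm38.p6): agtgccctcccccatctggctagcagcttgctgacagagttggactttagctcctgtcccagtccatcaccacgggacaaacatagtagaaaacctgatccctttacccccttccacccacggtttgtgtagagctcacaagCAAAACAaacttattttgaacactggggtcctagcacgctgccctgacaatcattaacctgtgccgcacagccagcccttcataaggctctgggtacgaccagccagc
Igfbp2 (chr1:72824230-72824479, build GRCm38.p6): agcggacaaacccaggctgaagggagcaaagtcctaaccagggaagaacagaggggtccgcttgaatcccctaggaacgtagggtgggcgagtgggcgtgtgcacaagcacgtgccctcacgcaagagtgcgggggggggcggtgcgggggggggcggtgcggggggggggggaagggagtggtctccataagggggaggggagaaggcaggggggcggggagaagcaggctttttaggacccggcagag
Igfals, first start (chr17:24877594-24877843, build GRCm38.p6): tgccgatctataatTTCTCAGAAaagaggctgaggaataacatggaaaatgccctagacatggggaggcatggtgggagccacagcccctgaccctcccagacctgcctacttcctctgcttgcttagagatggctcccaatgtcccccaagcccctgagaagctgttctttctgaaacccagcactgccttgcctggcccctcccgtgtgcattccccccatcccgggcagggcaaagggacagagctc
Igfals, second start (chr17:24877981-24878230, build GRCm38.p6): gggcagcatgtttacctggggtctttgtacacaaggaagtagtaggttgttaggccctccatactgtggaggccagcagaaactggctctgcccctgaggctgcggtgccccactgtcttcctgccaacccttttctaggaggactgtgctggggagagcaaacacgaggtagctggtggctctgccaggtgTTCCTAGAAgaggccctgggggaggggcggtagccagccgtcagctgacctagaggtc
The CAAAACA match of Igfbp1 lies 108 bases before its start, and 1827 of 32851 promoters in the table (5.56%) hold this motif. The TTCNNNGAA matches of Igfals lie 236 and 58 bases before 2 of its 3 listed starts, and 2306 promoters (7.02%) hold that motif. No other window of the 9 genes held either motif. A match describes letters only and is not evidence of binding in these cells.

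Values are FPKM, fragments scaled by exon length and library size, so that levels can be compared between genes, and tests were made on log2(FPKM + 1), a scale that understates the change of genes near 0. A gene was called in a comparison where limma gave an adjusted p under 0.05 (Benjamini-Hochberg over all genes tested) and the fitted difference was at least 2-fold, and "rose" and "fell" are kept for such calls. Cell libraries held 49299058 to 88877769 reads on genes and liver libraries 52073629 to 79266351. PHX-D3 replicate 2 stood apart, with a correlation of at most 0.902 with its own group where every other liver library reached 0.976 to 0.997. The 4 Y-linked genes checked were read 6575 to 9095 times per library in IL6-iHPCs-clone-1 (P20) but at 0 in the 3 libraries labelled IL6-iMHs-clone-1 (P20), which goes against the label that pair shares, so values over the 4 lines are also given without clone-1 where they move or lose a call. Without that line 8 of the 10 genes were called in IL6-iHPCs, 7 in IL6-iMHs and 4 between them. Background percentages are those of the main fit throughout. None is given for fits without clone-1, without a library or after quantile normalization, so counts from those fits have no background of their own. The Y-linked genes summed to only 5.46 to 7.21 FPKM in hepatocytes, but to 70.5 to 81.4 at D3 and 53.4 to 62.3 at D14. The other passaged lines had 0 to 2 Y-linked reads per library. Donor and culture thus cannot be told apart between these groups, including between hepatocytes and D3 or D14. Hepatocyte markers (Alb, Apoa1, Apob, Hnf4a and Ttr) summed to 70430 to 76032 FPKM in hepatocytes, 934 to 9906 in the IL6-iHPC groups and 59021 to 80196 in the IL6-iMHs. Kupffer cell markers summed to 9.09 to 11.3 FPKM in hepatocytes and 0 to 0.303 in the cultures.

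The axis moved in both directions within 3 days of culture. The growth hormone receptor, Igf1, Igfals and the most abundant binding protein of fresh hepatocytes, Igfbp2, fell, whereas Igfbp1, Igfbp3 and Stat5a rose. At D3, 8 of the 10 genes were called (3 higher and 5 lower) against a background of 66.0% of all genes tested (53.9% higher and 12.1% lower), and at D14 7 (3 higher and 4 lower) against 62.9% (50.0% and 12.9%). In the passaged IL6-iHPCs, taken as the mean of 4 lines, 7 were called (2 higher and 5 lower) against 59.4% (48.1% and 11.3%), and in the IL6-iMHs 7 (2 higher and 5 lower) against 32.6% (24.8% and 7.79%). Between D3 and D14, 2 rose and 2 fell against 10.2% (5.12% and 5.05%). The median fitted difference of the 10 genes was -0.68 at D3, -0.81 at D14, -1.24 in IL6-iHPCs and -1.44 in IL6-iMHs, beside 1.14, 1.00, 0.93 and 0.46 over all genes tested. These comparisons share the same 3 hepatocyte libraries and are not independent of each other.

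**Figure D1:**
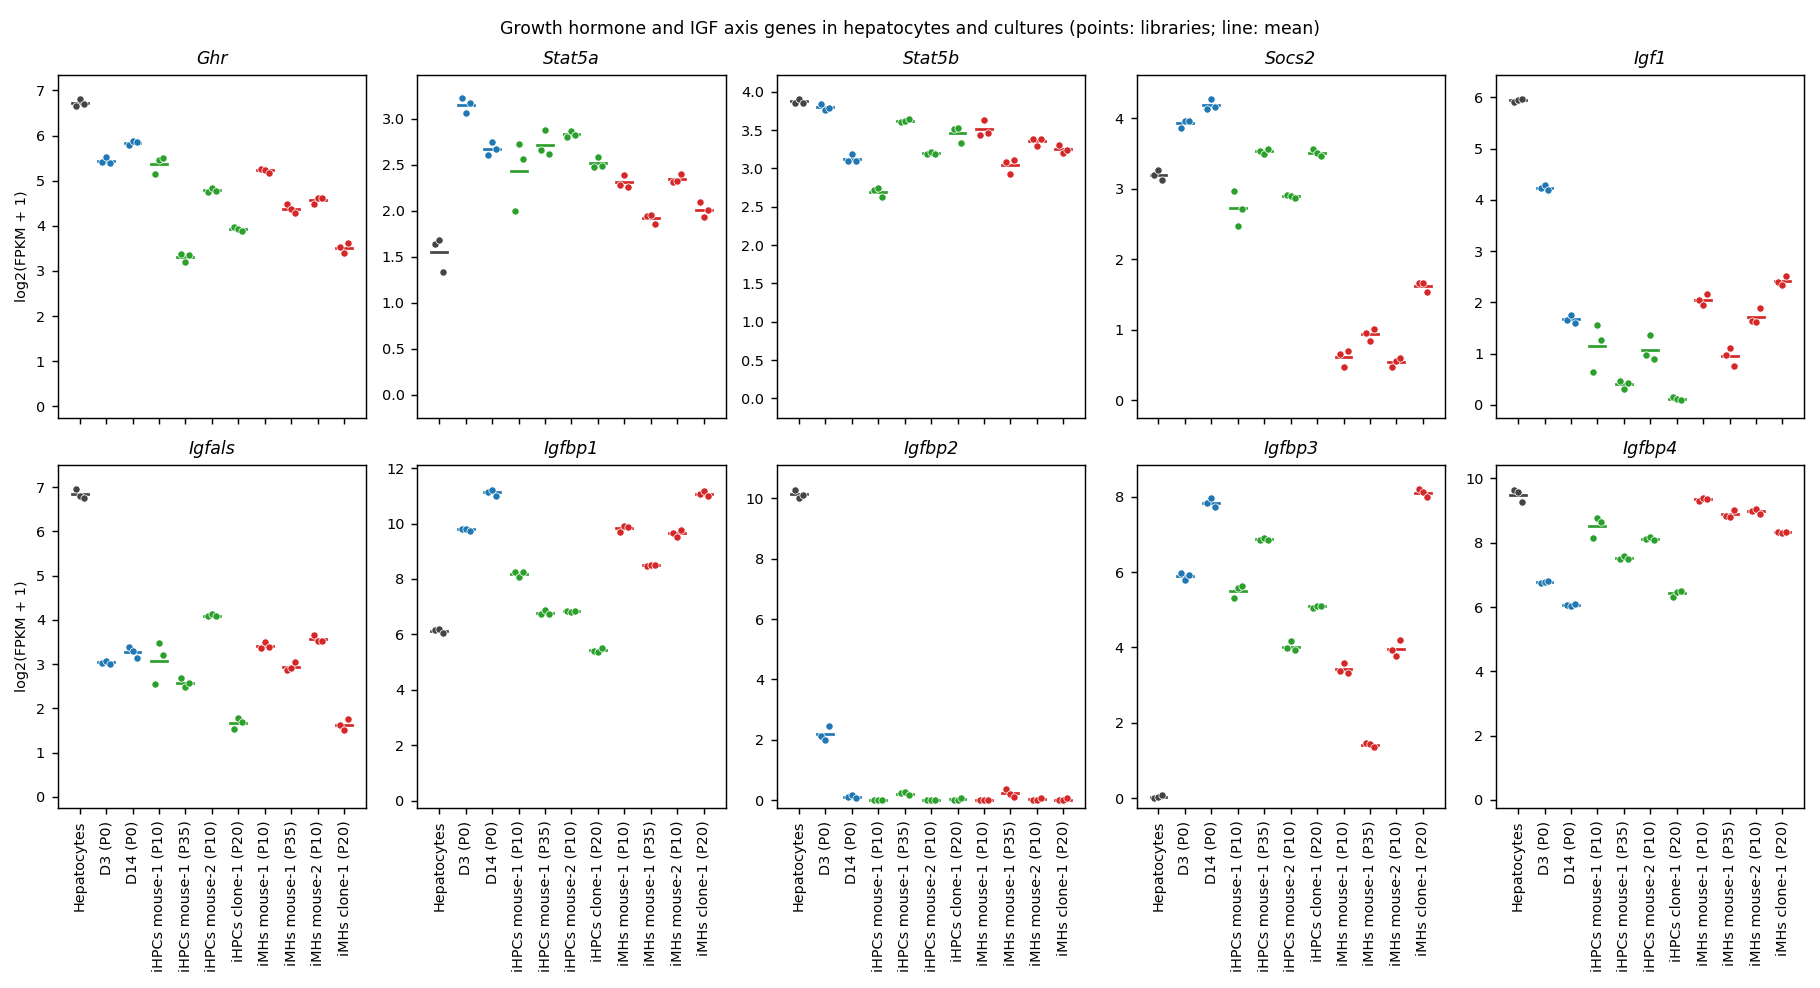
Levels of the 10 genes in the 33 libraries of the cell table, as log2(FPKM + 1) on the vertical axis, with 1 point per library and a line at the mean of the 3 libraries of each group. Igfbp2 sits at 1036 to 1249.5 FPKM in fresh hepatocytes and at 4.44 FPKM or less in every culture, whereas Igfbp1 is higher at D3 and D14 and in every IL6-iMH line than in fresh hepatocytes.

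The shift of all genes matters for the smaller differences. Quantile normalization, which forces the same distribution on every library, brought the median of all genes at D3 from 1.14 to 0.11, at D14 from 1.00 to 0.09, in IL6-iHPCs from 0.93 to 0.13, in IL6-iMHs from 0.46 to 0.01 and between IL6-iMHs and IL6-iHPCs from -0.40 to -0.08. D3 then had 2 calls up and 6 down, D14 had 2 and 5, IL6-iHPCs had 1 and 7, and IL6-iMHs had 2 and 5. The shares of all genes called after quantile normalization are not given here. Relative to the median of all genes, Igfbp1 lay 2.51, 3.98, -0.26 and 3.16 away at D3, at D14, in IL6-iHPCs and in IL6-iMHs on the log2 scale. Stat5a, by the same measure, lay only 0.47, 0.12, 0.14 and 0.13 away.

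Ghr, the receptor, was at 100.4, 111 and 103 FPKM in fresh hepatocytes. It was at 41.6, 44.7 and 40.7 FPKM at D3 and at 54.1, 57.9 and 56.9 FPKM at D14. All culture libraries lay under all hepatocyte libraries. Ghr fell at D3 by 1.29 on the log2 scale (SE 0.08, limma adjusted p = 4.4e-16), whereas the D14 difference of -0.88 did not reach 2-fold. Among passaged IL6-iHPCs clone-1 (P20) had 14.2 ± 0.529 FPKM (SD, n = 3), mouse-2 (P10) had 26.7 ± 0.959, mouse-1 (P10) had 40.6 ± 5.19 and mouse-1 (P35) had 8.93 ± 0.609, so the same line had less at the later passage (-2.06, adjusted p = 1.5e-20). Over the 4 lines Ghr fell in IL6-iHPCs by 2.37 (SE 0.08, adjusted p = 2.6e-25) and in IL6-iMHs by 2.30 (adjusted p = 1.2e-24). On maturation Ghr was at 22.6 FPKM over the 12 IL6-iHPC libraries and 22.4 over the 12 IL6-iMH libraries (difference 0.07, adjusted p = 0.072), and without clone-1 the difference was 0.23 (adjusted p = 2.3e-05), well under 2-fold. In such bulk samples fewer cells of a type and less RNA per cell cannot be told apart.

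The STAT5 genes carry the receptor's signal to the nucleus, and they are near-identical paralogs, so that reads could have been split between them and both values are uncertain. Stat5b, the main form in liver, was at 13.5, 14.1 and 13.4 FPKM in fresh hepatocytes and Stat5a at 2.10, 2.22 and 1.53. Stat5a was at 8.35, 7.39 and 8.02 FPKM at D3 and 5.08, 5.71 and 5.37 at D14, above every hepatocyte library. It rose by 1.60 at D3 (SE 0.11, limma adjusted p = 5.1e-14), 1.12 at D14 (adjusted p = 1.9e-10) and 1.07 in passaged IL6-iHPCs (adjusted p = 2.6e-12), a direction that under quantile normalization turned to -0.30 at D14 and -0.24 in IL6-iHPCs and shrank to 0.04 at D3. Stat5b was at 12.9 ± 0.360 FPKM at D3, next to its hepatocyte level of 13.7 ± 0.340, and lower at D14 (7.75 ± 0.292, difference -0.75), in IL6-iHPCs (-0.63) and in IL6-iMHs (-0.59) without reaching 2-fold. Under quantile normalization Stat5b fell past 2-fold at D3 (-1.13), D14 (-1.70) and in IL6-iHPCs (-1.49). The ratio of Stat5b to Stat5a, which does not depend on the scaling of a library, was 6.34 to 8.78 in hepatocyte libraries, 1.59 to 1.70 at D3, 1.41 to 1.49 at D14, 1.01 to 2.28 in passaged IL6-iHPCs and 2.19 to 2.91 in IL6-iMHs, and no culture library came near the hepatocyte range.

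Socs2, a suppressor of receptor signaling and a target of STAT5, was lower in the IL6-iMHs than in both IL6-iHPCs and fresh hepatocytes. It was at 8.10, 8.63 and 7.71 FPKM in fresh hepatocytes, 13.5, 14.6 and 14.6 at D3 and 16.5, 18.4 and 16.8 at D14. Those differences, 0.73 and 0.99, stayed under 2-fold, and under quantile normalization they became -0.47 and 0.02. In passaged IL6-iHPCs the 4 lines lay at 5.64 to 10.5 FPKM, around the hepatocyte level (difference -0.03, adjusted p = 0.64, and -1.07 with a call after quantile normalization). In the IL6-iMHs it was at 0.576, 0.379 and 0.620 FPKM for mouse-1 (P10), 0.942, 0.790 and 1.02 for mouse-1 (P35), 0.388, 0.471 and 0.515 for mouse-2 (P10) and 2.16, 2.16 and 1.90 for clone-1 (P20). Every IL6-iMH library lay under every hepatocyte library and under every IL6-iHPC library of its own line. Socs2 fell by 2.27 against hepatocytes (limma adjusted p = 3e-23) and by 2.23 against the matching IL6-iHPCs (adjusted p = 5.7e-28, 8.30-fold lower in mean FPKM).

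Igf1, the hormone of the axis, declined in steps over the first 14 days. It was at 59.3, 60.4 and 61.7 FPKM in fresh hepatocytes, 17.7, 18.5 and 17.4 at D3 and 2.15, 2.38 and 2.02 at D14. The 3 groups did not overlap, and mean FPKM was 3.38-fold lower at D3 and 27.7-fold lower at D14 than in hepatocytes. Igf1 fell by 1.70 at D3 (SE 0.14, limma adjusted p = 1.3e-12), by 4.27 at D14 (adjusted p = 2.1e-22) and by 2.57 from D3 to D14. In passaged IL6-iHPCs it ranged from 0.568 to 1.93 FPKM in mouse-1 (P10), and the libraries gave 0.960, 1.58 and 0.861 for mouse-2 (P10), 0.383, 0.246 and 0.339 for mouse-1 (P35) and 0.112, 0.0855 and 0.0611 for clone-1 (P20). Mouse-1 (P10) and mouse-2 (P10) could not be separated, and clone-1 was lowest. The IL6-iMHs held 3.16 ± 0.298, 2.30 ± 0.353, 0.937 ± 0.237 and 4.36 ± 0.358 FPKM (SD, n = 3) in mouse-1 (P10), mouse-2 (P10), mouse-1 (P35) and clone-1 (P20), so the order of the lines differed from that of the IL6-iHPCs. Igf1 fell by 4.16 in IL6-iMHs against hepatocytes (adjusted p = 1.9e-24) and rose by 1.10 from IL6-iHPCs to IL6-iMHs (adjusted p = 3.5e-15), a call lost without clone-1, where the difference was 0.69.

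Igfals, the acid-labile subunit, was low at D3 and D14 alike. It was at 122, 110.0 and 107 FPKM in fresh hepatocytes, 7.19, 7.38 and 7.01 at D3 and 9.44, 8.76 and 7.83 at D14, that is 15.7-fold lower in mean FPKM at D3. The fitted differences were -3.80 at D3 (SE 0.13, limma adjusted p = 4.9e-22), -3.56 at D14 (adjusted p = 2.8e-21), -3.98 in IL6-iHPCs (adjusted p = 3.9e-25) and -3.95 in IL6-iMHs (adjusted p = 1e-24). Among all 8 passaged groups the libraries lay between 1.83 FPKM in IL6-iMHs-clone-1 (P20) and 16.4 in IL6-iHPCs-mouse-2 (P10), with both clone-1 groups lowest. Maturation left it at 7.31 FPKM over the IL6-iMH libraries and 7.75 over the IL6-iHPC libraries (difference 0.03, adjusted p = 0.65). From D3 to D14 Igfals differed by 0.24, where Igf1, which joins it in the circulating complex, fell by 2.57.

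Igfbp2 was the most abundant IGFBP of fresh hepatocytes and the one whose level fell furthest. It was at 1249.5, 1036 and 1094 FPKM in hepatocytes, 3.35, 2.96 and 4.44 at D3 and 0.0661, 0.132 and 0.0637 at D14, the last being 4 to 8 reads per library. It was at 0 in all 3 libraries of IL6-iHPCs-mouse-1 (P10), IL6-iHPCs-mouse-2 (P10) and IL6-iMHs-mouse-1 (P10). Against a floor of 3 reads per library, hepatocytes were at least 21644-fold, 27245-fold and 31149-fold higher than these 3 groups. Clone-1 and IL6-iMHs-mouse-2 (P10) held 0 to 4 reads per library, and the highest library among the passaged groups was IL6-iMHs-mouse-1 (P35) with 0.305 FPKM. Igfbp2 fell by 7.95 at D3 (limma adjusted p = 7.5e-35) and by 2.06 more from D3 to D14, and maturation brought no measurable return (difference 0.01, adjusted p = 0.81).

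Igfbp4, the second most abundant IGFBP of fresh hepatocytes, fell at D3 and D14 and was higher than at D14 in every passaged group, before and after maturation. It was at 806, 769.8 and 609.9 FPKM in hepatocytes, 107, 108 and 112 at D3 and 65.7, 64.8 and 67.4 at D14, or 6.69-fold lower in mean FPKM at D3. In the passaged IL6-iHPCs it was at 85.1 ± 5.70 FPKM (SD, n = 3) for clone-1 (P20), 279 ± 8.95 for mouse-2 (P10), and 374 ± 81.2 and 184 ± 7.37 for mouse-1 at P10 and P35. The IL6-iMHs held 636, 669.9 and 652 FPKM in mouse-1 (P10), 511, 529 and 476 in mouse-2 (P10), 456, 444 and 516 in mouse-1 (P35) and 321, 314 and 325 in clone-1 (P20). IL6-iMHs-mouse-1 (P10) overlapped the hepatocyte libraries and the other IL6-iMH lines lay under them. Igfbp4 fell by 2.72 at D3 (SE 0.10, limma adjusted p = 1.1e-20), by 3.43 at D14 and by 1.85 in IL6-iHPCs, and it rose by 1.23 on maturation (adjusted p = 1.7e-19), or 0.77 and under the 2-fold limit after quantile normalization. The IL6-iMH mean lay 0.61 under hepatocytes, within 2-fold.

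Igfbp1 moved the other way. It was at 69.8, 73.0 and 65.4 FPKM in fresh hepatocytes, 891, 898 and 855 at D3 and 2262, 2389 and 2042 at D14, and the 3 groups did not overlap. Mean FPKM was 12.7-fold higher at D3 and 32.1-fold higher at D14 than in hepatocytes, with fitted differences of 3.65 (SE 0.07, limma adjusted p = 3e-27) and 4.98 (adjusted p = 1.4e-30), and Igfbp1 rose by a further 1.34 from D3 to D14 (0.73 and not called after quantile normalization). Every library of the passaged IL6-iHPCs lay under those of D3, at 302, 267 and 300.2 FPKM in mouse-1 (P10), 104, 117 and 107 in mouse-1 (P35), 115, 110.3 and 114 in mouse-2 (P10) and 41.4, 40.2 and 44.7 in clone-1 (P20). The first 3 of these lay above hepatocytes and clone-1 below, so the mean of the 4 lines differed from hepatocytes by 0.67, under 2-fold, and by 1.13 with a call when clone-1 was left out. In the IL6-iMHs it was at 827, 971 and 944 FPKM in mouse-1 (P10), 356, 360.5 and 362 in mouse-1 (P35), 801, 736 and 872 in mouse-2 (P10) and 2155, 2290.2 and 2018 in clone-1 (P20). Every IL6-iMH library was above every IL6-iHPC library of its line, Igfbp1 rose by 2.96 (adjusted p = 4e-32, or 2.06 and still called without clone-1), and IL6-iMHs stood 3.63 above hepatocytes (adjusted p = 1.1e-29).

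Igfbp3, the neighbour of Igfbp1 on chromosome 11 and the main carrier of IGF1 in blood, was at or near 0 in fresh hepatocytes and far higher in culture. It was at 0, 0.0312 and 0.0644 FPKM in hepatocytes, 15 reads over 3 libraries. It was at 62.2, 54.5 and 59.5 FPKM at D3 and 227, 250.2 and 209 at D14, above every hepatocyte library. Igfbp3 rose by fitted differences of 5.85 and 7.79 (limma adjusted p = 8.5e-30 and 8.2e-33), sizes that depend on the pseudocount. Among passaged IL6-iHPCs, mouse-1 (P10) held 44.7 ± 5.49 FPKM (SD, n = 3), mouse-1 (P35) held 116 ± 2.84, mouse-2 (P10) held 15.3 ± 1.39 and the clone-1 (P20) libraries held 32.2, 33.5 and 33.5. The IL6-iMH lines lay far apart, at 9.43, 11.1 and 8.92 FPKM in mouse-1 (P10), 1.78, 1.70 and 1.55 in mouse-1 (P35), 14.3, 12.6 and 17.4 in mouse-2 (P10) and 291, 278 and 254 in clone-1 (P20). The mean over lines fell by 1.14 on the log2 scale on maturation (adjusted p = 1e-19, -0.89 and not called after quantile normalization), although the arithmetic mean was higher in IL6-iMHs (75.2 FPKM) than in IL6-iHPCs (52.2 FPKM) through clone-1. Without clone-1, Igfbp3 fell by 2.53. Stellate cell markers summed to 0.559 to 0.887 FPKM in hepatocytes, 0.640 to 1.09 at D3, 25.0 to 26.6 at D14, 3.40 to 19.4 in passaged IL6-iHPCs and 0.0483 to 0.600 in IL6-iMHs, of which clone-1 (P20), with the highest Igfbp3, held 0.0483 to 0.120. Markers and Igfbp3 were both higher at D14 than in hepatocytes, whereas at D3 and in IL6-iMHs-clone-1 (P20) Igfbp3 was higher beside low marker sums. Of the 5 stellate markers, Col3a1 and Reln were at 0 in every library of IL6-iHPCs-mouse-1 (P10), IL6-iHPCs-mouse-2 (P10) and IL6-iHPCs-clone-1 (P20). The sums there came from Col1a1, Dcn and Lrat only. The part of stellate cells in the Igfbp3 level was not tested.

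**Figure D2:**
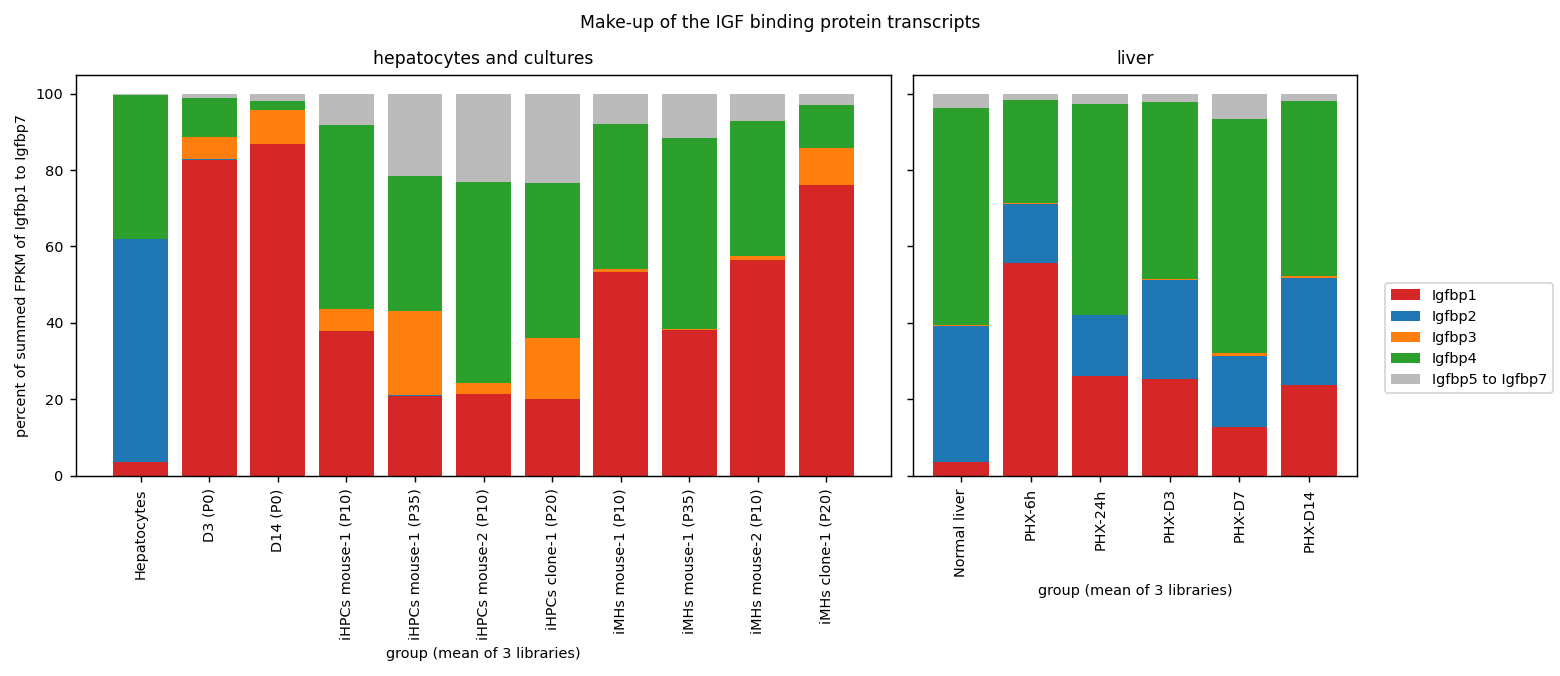
Share of each IGFBP in the summed FPKM of Igfbp1 to Igfbp7, in percent, as stacked bars that are the mean of 3 libraries for each group of the cell and liver tables. Igfbp2 and Igfbp4 make up 58.3% and 37.6% in fresh hepatocytes, and Igfbp1 makes up 86.7% at D14 and 55.7% at PHX-6h.

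The make-up of the IGFBP transcripts therefore differed in kind between fresh hepatocytes and the cultures, and protein was not measured. Of the summed FPKM of Igfbp1 to Igfbp7, fresh hepatocytes gave 58.3% to Igfbp2, 37.6% to Igfbp4 and 3.61% to Igfbp1. At D14 Igfbp1 took 86.7%, Igfbp3 8.88%, Igfbp4 2.58% and Igfbp2 0.00335%, while the sum itself was 2362 to 2752 FPKM against 1777 to 2134 in hepatocytes. In passaged IL6-iHPCs Igfbp4 led in every line with 35.3% to 52.7%, and in clone-1 the sum was only 199 to 223 FPKM. Among the IL6-iMHs, Igfbp1 led in mouse-1 (P10), mouse-2 (P10) and clone-1 (P20) with 53.4%, 56.4% and 76.1%, whereas Igfbp4 led in mouse-1 (P35) with 50.0%. Shares within a library do not depend on its scaling.

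**Figure D3:**
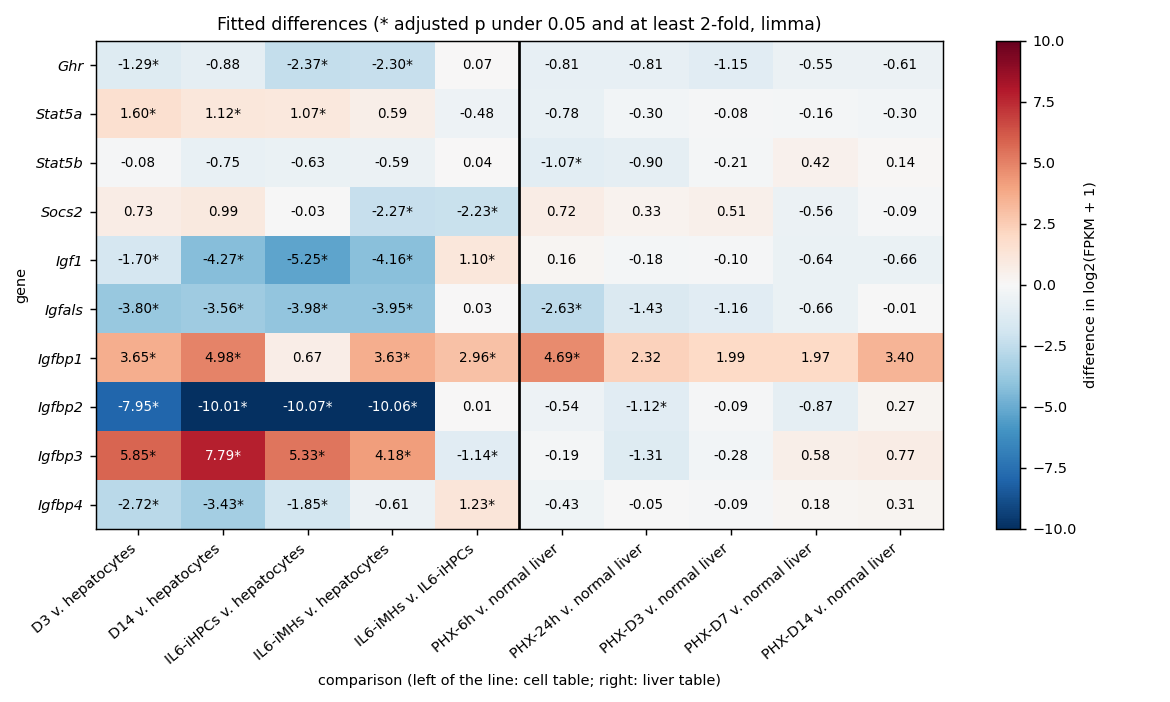
Fitted differences in log2(FPKM + 1) of the 10 genes (rows) in the 10 main comparisons (columns), as a colour scale with the value in each cell and a star on those called (adjusted p under 0.05 and at least 2-fold). Igfals and Igf1 are called lower in all 4 comparisons with hepatocytes, and the Stat5a rises at D14 and in IL6-iHPCs turn negative under quantile normalization, as does the uncalled Socs2 difference at D3.

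Maturation was then compared line by line. In each line, the IL6-iMHs were set against the IL6-iHPCs of the same name. Each such pair also differed in medium, HMM against IL6-HCM, so medium and maturation cannot be told apart. The mouse-1 (P10) pair gave 3 calls among the 10 genes (background 25.0%), the mouse-2 (P10) pair 2 (39.9%), the clone-1 (P20) pair 5 (23.6%) and the mouse-1 (P35) pair 5 (45.3%), beside 5 over the 4 lines together (3 higher and 2 lower, background 28.1%, of which 6.68% higher and 21.4% lower, and 2 higher and 1 lower after quantile normalization). Igfbp1 rose and Socs2 fell in all 4 lines, except that the Igfbp1 difference of mouse-1 (P10) was 0.95 and not called after quantile normalization. Igfbp1 rose by 1.65 and 1.71 in mouse-1 at P10 and P35, by 2.82 in mouse-2 (P10) and by 5.64 in clone-1 (P20), or 3.16-fold, 3.28-fold, 7.11-fold and 51.2-fold in mean FPKM. Socs2 fell by 2.11, 2.59, 2.35 and 1.89 in the same order. Igfbp3 fell by 2.08 in mouse-1 (P10) and by 5.45 in mouse-1 (P35), did not differ measurably in mouse-2 (P10) (-0.06, adjusted p = 0.56) and rose by 3.01 in clone-1 (P20).

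**Figure D4:**
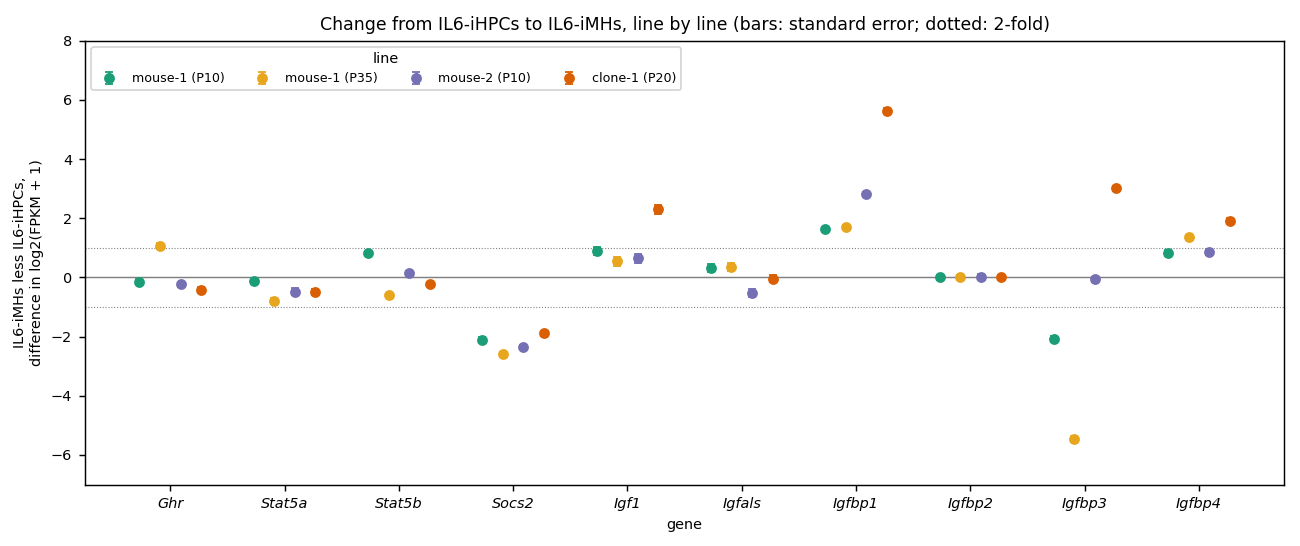
Difference in log2(FPKM + 1) between the IL6-iMHs and IL6-iHPCs of each line, for each of the 10 genes, with bars of 1 SE from limma and dotted lines at 2-fold. Igfbp1 is above and Socs2 below the 2-fold lines in all 4 lines (Igfbp1 of mouse-1 (P10) at 0.95 after quantile normalization), whereas Igfbp3 runs from -5.45 in mouse-1 (P35) to 3.01 in clone-1 (P20). The Igfbp4 difference of mouse-2 (P10) turns from 0.86 to -0.14 under quantile normalization.

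The differences between lines were themselves tested. Of 60 pairs of line effects over the 10 genes, 21 passed the same threshold. The share of all genes passing in such pairs is not given here, so the count cannot be read as particular to these genes. The gap in Igfbp3 between clone-1 (P20) and mouse-1 (P35) was 8.46 (SE 0.13, limma adjusted p = 2.9e-28), and that in Igfbp1 between mouse-1 (P10) and clone-1 (P20) was -3.99 (SE 0.11, adjusted p = 4.6e-23). Igf1 rose on maturation in clone-1 (2.30, adjusted p = 4e-15), where the IL6-iHPC level was lowest, and differed by 0.90, 0.64 and 0.54 in mouse-1 (P10), mouse-2 (P10) and mouse-1 (P35), values compressed by the pseudocount at such low levels. In mean FPKM those 3 differences were 2.43-fold, 2.03-fold and 2.91-fold, and voom on recovered reads called all 3. Ghr rose in mouse-1 (P35) (1.07, adjusted p = 6.2e-14), a response that exceeded that of clone-1 by 1.49 (adjusted p = 4.2e-13). The clone-1 values rest on the pair whose Y-linked reads differed.

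With passage, the mouse-1 IL6-iHPCs had 3 of 10 genes called between P35 and P10 (background 33.7%). Ghr fell by 2.06, Igfbp1 fell by 1.39 and Igfbp3 rose by 1.36. After quantile normalization 3 were lower and 0 higher, Igfbp3 being at 0.98 and Igfbp4 at -1.51, and voom called 3 higher and 3 lower. In the mouse-1 IL6-iMHs, 3 genes were also called (background 6.21%), and all were lower at P35, Igf1 by 1.11, Igfbp1 by 1.34 and Igfbp3 by 2.01 on the log2 scale. Igfbp3 thus had the opposite sign in the progenitor-like and the matured cells of the same line, at 116 FPKM against 44.7 in IL6-iHPCs and 1.68 against 9.82 in IL6-iMHs.

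In the regenerating liver Igfbp1 rose, and Igfals and Stat5b fell, at 6 hours. At PHX-6h, 3 of 10 genes were called (1 higher and 2 lower) against a background of 16.3% (4.78% higher and 11.5% lower), and at PHX-24h 1 (lower) against 7.90% (3.74% and 4.16%). Without PHX-D3 replicate 2 the count at PHX-24h became 4 (Igfals, Igfbp1, Igfbp2 and Igfbp3), and the share of all genes in that fit is not given here. At PHX-D3, PHX-D7 and PHX-D14 limma called 0, against backgrounds of 5.82% (3.33% higher and 2.49% lower), 8.84% (7.81% and 1.03%) and 2.98%, and 1, 3 and 3 of the 10 genes had an unadjusted p under 0.05, while voom on recovered reads called 0 at each. After quantile normalization 1 was higher and 1 lower at PHX-6h. The median fitted difference of the 10 genes was -0.49, -0.56, -0.10, -0.36 and 0.07 at the 5 times, beside -0.28, -0.02, 0.01, 0.13 and -0.08 over all genes. These 5 comparisons share the 3 Normal liver libraries.

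**Figure D5:**
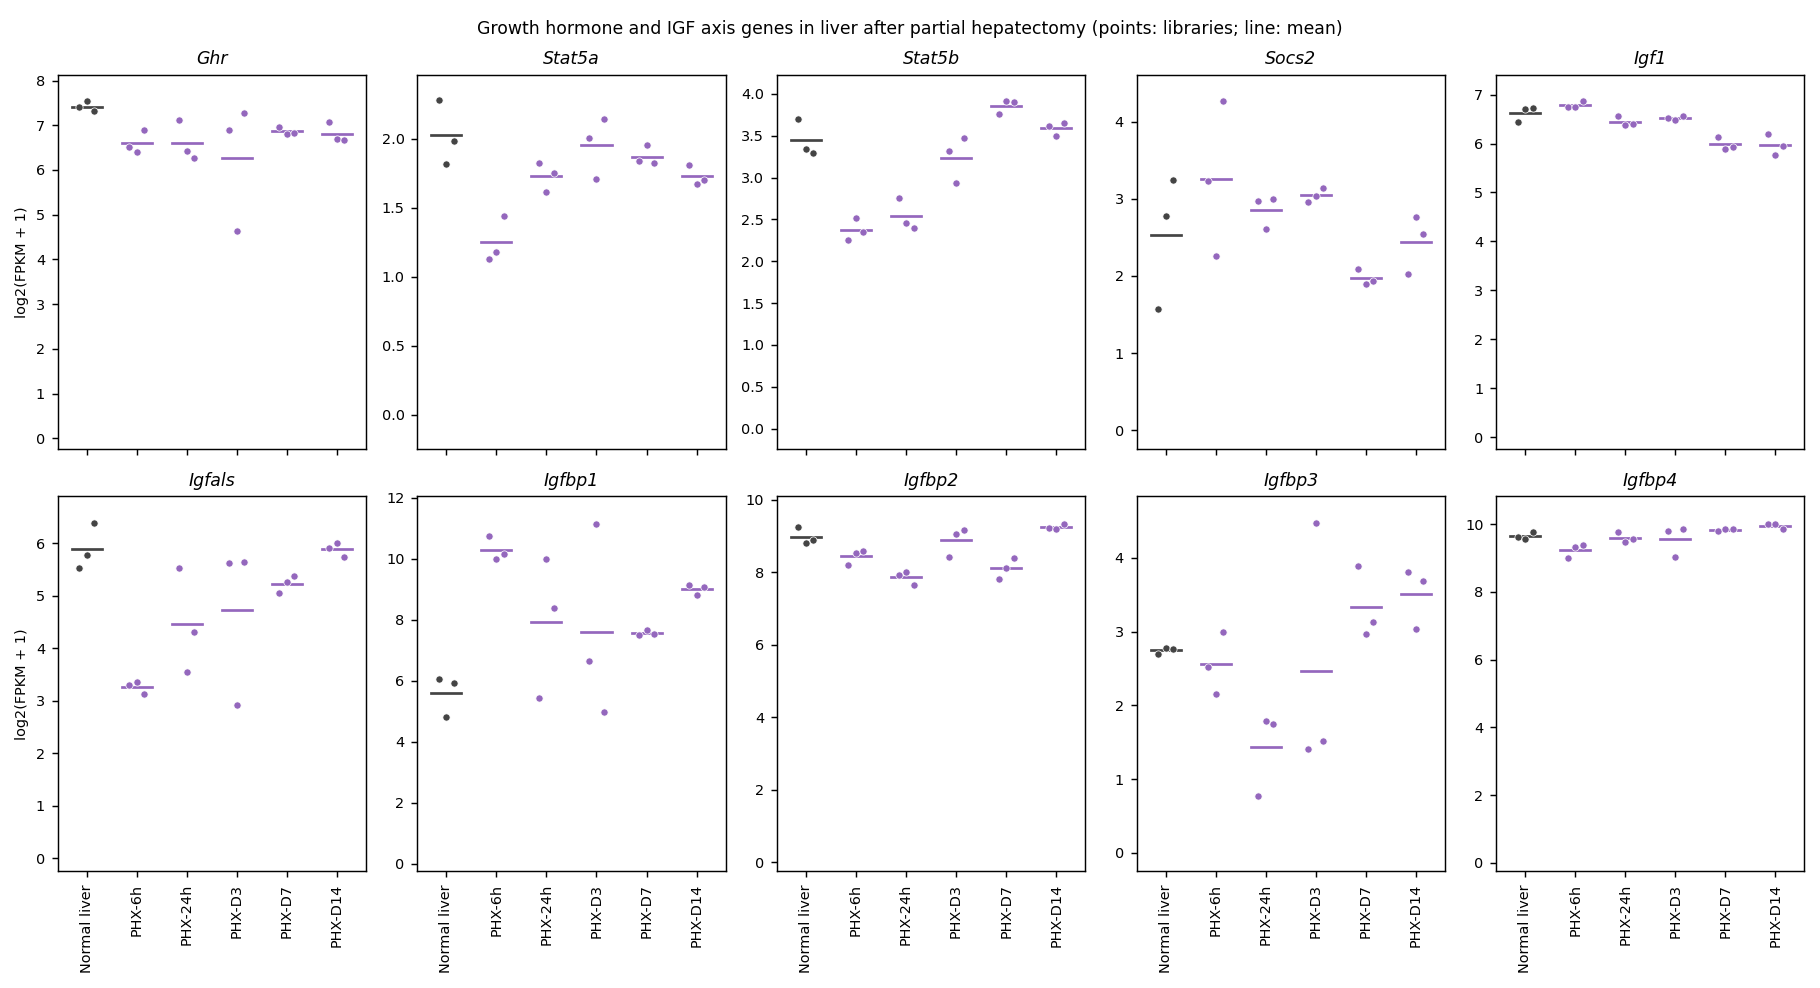
Levels of the 10 genes in the 18 liver libraries, as log2(FPKM + 1) on the vertical axis, with 1 point per library and a line at the mean of the 3 libraries of each group. Igfbp1 is at 1017 to 1701 FPKM at PHX-6h against 27.3 to 65.5 in Normal liver, and 1 PHX-D3 library, which stood apart over all genes, is at 2272 FPKM beside 99.5 and 30.2.

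Igfbp1 was at 65.5, 27.3 and 59.7 FPKM in Normal liver and 1701, 1017 and 1131 at PHX-6h. The groups did not overlap, mean FPKM was 25.2-fold higher, and Igfbp1 rose by 4.69 (SE 1.19, limma adjusted p = 0.0041). At PHX-24h it was at 42.0, 1006 and 329.7 FPKM, and at PHX-D3 at 99.5, 2272 and 30.2, and in each of these groups 1 library lay within the normal range and the other two above it. At PHX-D7 it was at 181, 202 and 185 FPKM and at PHX-D14 at 559, 449 and 533, tight groups that lay wholly above Normal liver. Because 1 estimate of spread served all times, the D7 difference of 1.97 and the D14 difference of 3.40 had adjusted p-values of 0.23 and 0.062. Without PHX-D3 replicate 2, Igfbp1 was called at PHX-24h (2.32, adjusted p = 0.023) and at PHX-D14 (3.40, adjusted p = 0.0048).

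Igfals was at 45.3, 53.3 and 82.0 FPKM in Normal liver and 8.83, 9.26 and 7.72 at PHX-6h. It fell by 2.63 (SE 0.57, limma adjusted p = 0.0014), 7.00-fold in mean FPKM, with no overlap. At PHX-24h it was at 45.2, 10.7 and 18.8 FPKM and at PHX-D3 at 48.3, 6.59 and 49.0, the low D3 value coming from the library that stood apart. It was at 36.6 ± 4.06 FPKM at PHX-D7 and 58.0 ± 5.57 at PHX-D14 (SD, n = 3), the last overlapping Normal liver (60.2 ± 19.3). The 6 hour difference was larger than that of day 14 by 2.62 (adjusted p = 0.0015).

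Stat5b was at 11.9, 9.16 and 8.78 FPKM in Normal liver, 3.78, 4.70 and 4.08 at PHX-6h and 5.78, 4.50 and 4.27 at PHX-24h, and these groups did not overlap with Normal liver. It fell by 1.07 at PHX-6h (SE 0.15, limma adjusted p = 3.8e-05), or -0.77 and under 2-fold after quantile normalization and -0.95 without Normal liver replicate 1. At PHX-24h the difference was -0.90 (adjusted p = 0.00048), under 2-fold. At PHX-D7 Stat5b was at 12.6, 14.1 and 13.9 FPKM, all above Normal liver, with a difference of 0.42 (adjusted p = 0.045). Stat5a, the paralog, was at 3.86, 2.52 and 2.95 FPKM in Normal liver and 1.19, 1.26 and 1.71 at PHX-6h (difference -0.78, adjusted p = 0.00028, under 2-fold on this scale). The ratio of Stat5b to Stat5a was 2.98 to 3.63 in Normal liver, 2.39 to 3.73 at PHX-6h, 1.81 to 2.28 at PHX-24h, 2.93 to 2.97 at PHX-D3, 4.89 to 5.49 at PHX-D7 and 4.51 to 5.13 at PHX-D14. It spanned the range of Normal liver at PHX-6h, lay under it at PHX-24h, just under it at PHX-D3 and over it at PHX-D7 and PHX-D14.

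Ghr was at 168, 184 and 158 FPKM in Normal liver, and no library after PHX reached that range, the highest being 153 FPKM at PHX-D3. The differences ran from -1.15 at PHX-D3 to -0.55 at PHX-D7 with adjusted p-values of 0.071 or more. Without the PHX-D3 library that stood apart, which held 24.0 FPKM, the D3 value became -0.34 and the other 4 times had adjusted p-values of 0.0021 to 0.034, each under 2-fold. With that library kept, PHX-D3 was called without its replicate 1 (-1.46) or its replicate 3 (-1.65). Socs2 was at 1.98, 5.85 and 8.51 FPKM in Normal liver and 8.38, 3.80 and 18.3 at PHX-6h, groups that overlapped, and no difference passed the threshold at any time, although that at PHX-6h was called without its replicate 2 (1.22, adjusted p = 0.019). Its tightest group was PHX-D7 at 2.93 ± 0.286 FPKM (SD, n = 3).

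Igf1 kept its level through the first 3 days and was lower later. It was at 85.9, 104 and 104 FPKM in Normal liver, 107, 107 and 115 at PHX-6h, 93.0, 82.0 and 83.2 at PHX-24h and 91.0, 88.2 and 94.2 at PHX-D3. At PHX-D7 it was at 69.5, 57.9 and 59.9 FPKM and at PHX-D14 at 71.8, 53.4 and 60.8, all under every Normal liver library. The differences of -0.64 at PHX-D7 (SE 0.12, limma adjusted p = 0.00099) and -0.66 at PHX-D14 (adjusted p = 0.002) were past the p threshold, and at 1.57-fold and 1.58-fold in mean FPKM they were under the 2-fold limit.

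Of the other binding proteins, Igfbp2 was at 603, 445 and 473 FPKM in Normal liver and 239, 255 and 200.1 at PHX-24h. It fell by 1.12 at PHX-24h (SE 0.20, limma adjusted p = 0.00088, -0.99 and no longer called without Normal liver replicate 1) and was back at 588, 583 and 646 FPKM at PHX-D14. The loss seen in culture, to 4.44 FPKM or less, had no counterpart in the liver, where no library was under 200.1 FPKM. Igfbp3 was at 5.48, 5.88 and 5.77 FPKM in Normal liver, 0.705, 2.45 and 2.35 at PHX-24h and 13.0, 7.21 and 11.9 at PHX-D14, with differences of -1.31 and 0.77 that were not called, the first being called without PHX-D3 replicate 2 (adjusted p = 0.0023). Endothelial markers summed to 97.4 to 106 FPKM in Normal liver, 121 to 188 at PHX-D7 and 52.6 to 81.1 at the other times, and their part in the liver Igfbp3 level was not tested. Igfbp4 stayed between 506 and 1032 FPKM in every liver library, with differences of -0.43 to 0.31.

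In shares of the summed IGFBP FPKM, Igfbp1 went from 3.51% in Normal liver to 55.7% at PHX-6h, while Igfbp2 went from 35.6% to 15.5% and Igfbp4 from 56.6% to 26.8%. Igfbp1 then ranged from 3.53% to 50.0% between libraries at PHX-24h and from 1.92% to 67.0% at PHX-D3. At PHX-D7 and PHX-D14 it held 12.8% and 23.7%.

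The wider axis was read as 8 lists of 43 genes by role. Among IGF ligand and receptors, 3 of 4 tested genes rose at D3 (2 after quantile normalization, background 53.9% higher), led by the scavenger receptor Igf2r (2.24 to 27.1 FPKM), and 4 of 4 rose at D14 (background 50.0% higher), led by Igf2, the fetal IGF, which went from 0.0185 to 38.1 FPKM. In the liver its 2 tested members, Igf2r and the insulin receptor Insr, stayed within 2-fold, the furthest being Insr at PHX-D3 (0.79, limma adjusted p = 0.00078). Of the signal transducers next to the receptor, 5 of 7 rose at D3 (2 after quantile normalization, background 53.9% higher), led by Jak2, the kinase of the growth hormone receptor, which went from 0.679 to 17.6 FPKM (3.47). At PHX-D7, 2 of 7 rose (1 after quantile normalization, background 7.81% higher), led by Irs2, a docking protein of the insulin and IGF1 receptors, from 1.35 to 15.8 FPKM (2.83). Kupffer cell markers summed to 518 to 769 FPKM at PHX-D7 and 102 to 180 in Normal liver, and their part in the PHX-D7 values was not tested.

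The negative regulators of cytokine receptor signaling split. At D3 3 of 7 rose and 1 fell (background 53.9% and 12.1%), and in IL6-iMHs 2 rose and 2 fell (background 24.8% and 7.79%), the furthest down being Cish, like Socs2 a STAT5 target, from 13.4 to 0.606 FPKM (-3.18). On maturation 3 of 7 fell (background 21.4% lower, 4 without clone-1), led by Socs3, a STAT3 target, from 77.2 to 14.0 FPKM (-2.61). At PHX-6h 4 of 7 rose and 1 fell (4 and 0 after quantile normalization, background 4.78% and 11.5%), led by Socs3 from 4.66 to 43.1 FPKM (2.98), and at PHX-D14 Cish alone rose, from 7.36 to 29.5 FPKM (1.99). Among other IGFBPs, Igfbp7 went from 7.77 FPKM in hepatocytes to 81.8 in IL6-iHPCs (3.08) and 106 in IL6-iMHs (3.57), and in the liver the fitted differences of the 3 tested genes ran from -0.98 for Igfbp6 at PHX-D3 (1.97 to 0.531 FPKM, -1.05 and called after quantile normalization) to 0.83 for Igfbp7 at PHX-D7. Of the IGFBP proteases and their inhibitors, only the inhibitors Stc1 and Stc2 could be tested in cells, and no protease. These 2 of 2 tested genes rose in IL6-iHPCs and in IL6-iMHs (background 48.1% and 24.8% higher), led by Stc1 (2.75 and 3.12), an inhibitor of the protease that cleaves IGFBP4. Of the IGF2 mRNA binding proteins, 3 of 3 rose in IL6-iHPCs (2 after quantile normalization or without clone-1, background 48.1% higher), led by Igf2bp2 from 0.0801 to 50.2 FPKM.

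Genes whose liver expression depends on the male pattern of growth hormone fell together in culture. All 7 fell at D3 and at D14 as well as in IL6-iHPCs, where 12.1%, 12.9% and 11.3% of all genes fell. Their medians were -8.00, -6.50 and -8.00 beside 1.14, 1.00 and 0.93 over all genes tested. Hepatocyte markers were lower as well, summing to 934 to 1096 FPKM at D3 and 4210 to 5170 at D14 against 70430 to 76032 in hepatocytes. Their sum was 59021 to 80196 FPKM in the IL6-iMHs. Whether the falls are particular to genes under growth hormone was not tested. The largest fall at D3 was that of Cyp2d9, a steroid hydroxylase, from 1034 to 2.29 FPKM (-8.30). In IL6-iMHs 6 of 7 fell against hepatocytes, where 7.79% of all genes fell. Without clone-1 5 of 7 fell, the transporter Slco1a1 going from -1.25 to -0.21. Hsd3b5, a steroid reductase, went from 284 FPKM in hepatocytes to 0 in IL6-iMHs. From IL6-iHPCs to IL6-iMHs, however, 4 of 7 rose (6.68% of all genes rose), led by Cyp2d9 from 4.88 to 256 FPKM (6.00). In the liver 3 of 7 fell at PHX-6h, 5 at PHX-24h, 6 at PHX-D3 and 2 at PHX-D7 (11.5%, 4.16%, 2.49% and 1.03% of all genes fell). Without PHX-D3 replicate 2 these counts became 4, 6, 5 and 5, and the shares of all genes in that fit are not given here. Hsd3b5 went from 267 to 3.10 FPKM at PHX-6h (-6.11). The Y-linked genes also differed between liver groups, summing to 46.2 to 66.7 FPKM in Normal liver, 49.9 to 79.0 at PHX-6h and 60.4 to 73.1 at PHX-24h. They summed to 34.0 to 47.0 FPKM at PHX-D3, 27.5 to 35.5 at PHX-D7 and 17.2 to 21.0 at PHX-D14. The part of the animals used in these liver values was not tested. Of the female-biased list only 3 genes could be tested in cells and 1 in liver, and Cyp2b9, a cytochrome P450, rose at PHX-D7 from 0.511 to 21.5 FPKM (3.96). The passaged lines other than IL6-iHPCs-clone-1 (P20) lacked Y-linked reads that the hepatocytes held, and for those lines donor sex and culture cannot be told apart in these lists. D3 and D14 held Y-linked reads, summing to 70.5 to 81.4 and 53.4 to 62.3 FPKM against 5.46 to 7.21 in hepatocytes. The part of the donors in the D3 and D14 values was not tested.

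The genes most like Igf1 in level over the 33 cell libraries (Pearson r on log2(FPKM + 1), given as a description over libraries that share 11 groups) were Cmpk2 (0.929), Fcgr2b (0.929) and Hlf (0.928). For Igfbp1 they were 6430548M08Rik (0.924), Rnf144b (0.877) and Sdc4 (0.872). Over the 18 liver libraries of 6 groups, Igf1 was most like Nsrp1 (0.887), Zfp119b (0.886) and Zfp949 (0.885), and Ets2 (0.935) and Tat (0.895) were among the genes most like Igfbp1.

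The day 7 table lists Igfbp1, and shows it in hepatocytes cultured with and without IL6. It was at 69.7, 69.5 and 70.5 FPKM in primary hepatocytes, 2454, 2472 and 2379.9 in HCM-Hepa-D7 (P0), kept 7 days in the medium without IL6, and 983, 1029 and 965 in IL6-iHPCs-D7 (P0). The 3 groups did not overlap. Igfbp1 rose 34.8-fold in mean FPKM without IL6 (5.10, SE 0.04, limma adjusted p = 1.7e-16) and 14.2-fold with IL6 (3.81, adjusted p = 1.2e-15), and it was 2.45-fold lower with IL6 than without (-1.29, adjusted p = 4.4e-10). The 276 genes tested there had medians of 0.87, 0.85 and -0.00 in these comparisons, and the tables were not combined.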

How the data were processed

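Poly-T selected RNA was sequenced in 33 cell samples, 18 liver samples and 9 day 7 samples. The authors aligned reads with TopHat 1.4.1 to mm10 and made the deposited FPKM values with Cufflinks 1.3.0, per the submitters' processing notes; the order and use of these tools and the strand setting are not given in the sources used here, and the unit was read from the paper and the values. The deposited day 7 table holds 481 rows, of which 1 incomplete row was dropped, lists Igfbp1 but neither Stat5a nor Stat5b, and was used for Igfbp1 only.

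Here limma 3.58.1 (R 4.3.3, eBayes with trend) was fitted to log2(FPKM + 1), pseudocount 1, over all groups of a table without a replicate block, for genes reaching 1 FPKM in 3 samples or more, and p-values were adjusted by Benjamini-Hochberg across every gene fitted. An exact permutation test of 3 against 3 cannot go below p = 0.1, so none is given. FPKM steps gave whole reads, within 0.05 of a read, for 18829 of 18830 rows of the cell table and 17330 of 17331 of the liver table. These recovered reads served for depth, floors of 3 reads, and limma's voom as an alternative. Floors cover counting error only. Same-numbered libraries did not deviate together in the median (r -0.0156 over 165 pairs of the cell table and -0.0551 over 45 of the liver table). Single pairs ran from -0.536 to 0.573 and from -0.299 to 0.386, so a median cannot exclude pairing between particular groups. The main fit used no pairing by number. The scripts were tested on simulated data.

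All 10 genes are named in both tables. Each wider list is given as counts with its largest rise and fall, and the genes most alike are named for Igf1 and Igfbp1, except that some results of these kinds are not reported here. The members and lists were chosen with earlier results of these data known. Sequences came from RefSeq and positions from GENCODE, drawn with Python 3.11.15, pandas 2.3.3, numpy 2.4.6 and matplotlib 3.10.9. Alternatives were other fold limits, a pseudocount of 0.1, other filters, quantile normalization, voom, a replicate block, leaving out each library, and leaving out clone-1; leaving out PHX-D3 replicate 2, and clone-1 for the wider lists, was chosen after seeing the data.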

Additional observations from a re-analysis of the deposited data

Results flagged for a closer look

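Differences between lines in the response to maturation, tested within the limma fit and given as the first line's difference less the second's on the log2(FPKM + 1) scale, were past the threshold for 21 of 60 pairs, and 1 pair per gene is given here. No share of all genes stands beside this count. For Ghr, clone-1 (P20) less mouse-1 (P35) was -1.49 (SE 0.11, adjusted p = 4.2e-13). For Igf1 the same pair gave 1.76 (SE 0.20, adjusted p = 4.8e-09). For Igfbp3 it gave 8.46 (SE 0.13, adjusted p = 2.9e-28). For Igfbp1, mouse-1 (P10) less clone-1 (P20) was -3.99 (SE 0.11, adjusted p = 4.6e-23), and for Igfbp4 it was -1.07 (SE 0.15, adjusted p = 1.7e-07). For Stat5b, mouse-1 (P10) less mouse-1 (P35) was 1.39 (SE 0.09, adjusted p = 1.9e-14). Values with clone-1 rest on the pair whose Y-linked reads differ.

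In the liver, 13 of 100 pairs of times differed, each time being taken against the same Normal liver libraries. This count, too, has no share of all genes beside it. Igfals at PHX-6h less PHX-D14 was -2.62 (SE 0.57, adjusted p = 0.0015). At PHX-24h less PHX-D14, Igfbp2 was -1.39 (SE 0.20, adjusted p = 7.4e-05) and Igfbp3 was -2.08 (SE 0.59, adjusted p = 0.01). At PHX-6h less PHX-D7, Socs2 was 1.28 (SE 0.42, adjusted p = 0.015) and Stat5b was -1.49 (SE 0.15, adjusted p = 6.9e-07), the latter not past the threshold after quantile normalization.

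Igfbp1 in the day 7 table, outside the main measurement, was 5.10 higher on the same scale in HCM-Hepa-D7 (P0) than in primary hepatocytes (SE 0.04, adjusted p = 1.7e-16).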

How the results depend on the processing

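Of 3425 values of single genes under the alternatives, 72 passed the threshold newly, 15 lost it, 3 were called in the main fit and changed sign, and the other 3335 stayed on their side of it. In 61 values the sign changed with neither value past the threshold. The 3 reversals are those of Stat5a under quantile normalization, to -0.30 at D14, -0.24 in IL6-iHPCs and -0.32 in IL6-iHPCs-mouse-1 (P35). All 3 reversed values were under 2-fold, and the cause was not tested. A 4-fold limit left 5 genes called at D3, 2 between IL6-iMHs and IL6-iHPCs and 0 at PHX-24h. Quantile normalization left 3 between IL6-iMHs and IL6-iHPCs. Without a fold limit 5 genes were called at PHX-6h, 2 at PHX-24h, 3 at PHX-D7 and 1 at PHX-D14. At PHX-24h a pseudocount of 0.1 gave 2 and voom gave 2. Leaving out 1 library at a time gave 8 to 8 genes at D3, 7 to 8 at D14, 6 to 7 in IL6-iHPCs, 7 to 7 in IL6-iMHs, 5 to 5 between them, 2 to 4 at PHX-6h, 0 to 4 at PHX-24h, 0 to 2 at PHX-D3, 0 to 1 at PHX-D7 and 0 to 1 at PHX-D14. At PHX-24h 4 genes were called without PHX-D3 replicate 2 (Igfals, Igfbp1, Igfbp2 and Igfbp3) or without PHX-24h replicate 1, and 0 without Normal liver replicate 1.

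With the replicate block the counts were 8, 7, 7, 7 and 5 in the cell comparisons and 3, 1, 0, 0 and 0 in the liver, the same as without it. Whether the numbers pair the samples of particular groups is not known.

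Depth does not limit the abundant members. It limits Igfbp2 in the passaged cultures and Igfbp3 in hepatocytes, which rest on a few reads. Technical repeats, 2 lines from 1 mouse and the wide spread of Igfbp1, Igfals and Ghr between liver samples of 1 group limit the rest.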
